A study of Homo sapiens with 2 samples.

Results

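The retinoid receptors and their coregulators were examined as a set of 9 genes, out of 60623 gene entries counted by RNA sequencing. They were taken by name from a fixed list, chosen with earlier results of these data known. The set held 5 receptor genes (RARA, RARB, RARG, RXRA and RXRB) and 4 coregulator genes (NCOR1, NRIP1, NCOA1 and NCOA3), and each was matched by its Ensembl identifier. The cells were HepG2, a human hepatocellular carcinoma line recorded as WT. Both groups were loaded with 1 mM FFA (oleic and palmitic acid bound to albumin) for 24 h. One group received FFA alone, and the other received FFA with 9-cis-RA at 10 μM for 24 h. The study describes 9-cis-RA both as given together with FFA and as given after it, so the order is not settled here. It states that the DMSO solvent was matched across groups. This isomer of retinoic acid binds both RARs and RXRs. Each group had 1 library, so every difference below compares 2 libraries of one cell line without a replicate check, and treatment and culture cannot be told apart. Neither p-values nor SDs are given. In bulk RNA a lower level in each cell and fewer expressing cells cannot be told apart.

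Retinoic acid receptors (RARs) are ligand-activated transcription factors that bind DNA as heterodimers with retinoid X receptors (RXRs). Without ligand the pair holds corepressors such as NCOR1, which bring histone deacetylase to the gene. Ligand binding releases them and recruits coactivators of the steroid receptor coactivator family, which includes NCOA1 and NCOA3. NRIP1 binds receptors that carry ligand but acts mostly as a repressor. RXRs are also the partners of the PPARs, LXRs, FXR and the vitamin D receptor, which is why they are studied in hepatic lipid metabolism. The comparison asks how the receptor and coregulator transcripts themselves differed when FFA-treated cells were given the ligand.

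The FFA library held 60821539 counts and the FFA + 9-cis-RA library 57669670. The 8 hepatocyte markers examined were all counted, from 6.78 TPM for TTR to 4067 TPM for AFP in the FFA library. Among markers of other cells, PTPRC, KDR, DCN and LRAT had 0 counts in both libraries, which allows up to 3 counts, or 0.0493 CPM and 0.0520 CPM. An exception was LYZ, at 159 and 97.7 TPM. The other 8 such markers reported lay at or below 0.844 TPM, the value of VWF with FFA alone. Of these, CD68 may be understated, because 81.6% of its exonic bases overlap another gene and reads on more than 1 gene were dropped. Of the 8 hepatocyte markers 5 were lower with 9-cis-RA and 3 higher, each by more than counting error, with a median log2 fold change of -0.17. The log2 fold changes of the lowest were -0.99 for AFP and -0.70 for ALB, and those of the higher genes APOB, APOA1 and SERPINA1 were 0.050, 0.039 and 0.036. The part of such a shift in the results below was not tested. The treatment label was checked on CYP26A1, a retinoic acid hydroxylase gene that had 4 counts with FFA alone and 709 once 9-cis-RA was added, and on DHRS3, a retinaldehyde reductase gene that had 1126 and 1999. Both label checks were higher where the label names 9-cis-RA.

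Levels of different genes were compared as TPM, the counts per exonic base scaled to the same sum in each library. Fold changes were taken from counts divided by size factors, with a pseudocount of 1 added, as FFA + 9-cis-RA against FFA on the log2 scale. Each has an exact 95% interval, and family shares and sums have an approximate one. All intervals cover counting error only. On TPM the log2 ratios lie 0.090 higher than on size factors.

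Only one promoter element of the kind searched was found among the 9 genes, and it lay in RARB. RefSeq promoter windows (GRCh38.p14, from 250 bases before to 50 after a transcript start) were available for all 9 genes, in 21 windows. RARB had 4 windows, RARA, NRIP1 and NCOA1 had 3 each, RXRA, RXRB and NCOR1 had 2 each, and RARG and NCOA3 had 1 each. The genes were therefore not searched to the same extent. All windows were searched on both strands for 2 half-sites in the same orientation, with 1, 2 or 5 bases between them (DR1, DR2 and DR5). A half-site was the consensus AGGTCA or one of its variants. Accepted variants were AGTTCA as one choice, then GGGTCA as another, and GGTTCA as the last of them, in any combination. The half-sites of a match share no bases. Such spacings are the textbook binding sites of RXR dimers and of RAR-RXR dimers. DR5 was found in 1 of the 21 windows, against 31 of all 35116 windows (0.0883%). That match joins 2 of the accepted variants, GGTTCA and AGTTCA, so it rests on the choice of variants, and enrichment was not tested. DR1 and DR2 were found in 0 of the 21, against 0.131% and 0.0399% of all windows. The bases upstream of the RARB start at position 25428263 of chromosome 3, chr3:25428013-25428262 on the plus strand, are shown because they carry that element, with its half-sites in capitals.

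RARB: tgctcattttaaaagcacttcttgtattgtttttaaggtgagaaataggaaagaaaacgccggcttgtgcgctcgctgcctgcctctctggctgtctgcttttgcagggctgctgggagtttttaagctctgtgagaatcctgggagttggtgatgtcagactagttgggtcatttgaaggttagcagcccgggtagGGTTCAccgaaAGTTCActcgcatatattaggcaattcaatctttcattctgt

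The element covers chromosome 3 positions 25428210 to 25428226, from 53 to 37 bases before the start, and an exon of the counting annotation begins at that same start. Of the label check genes, CYP26A1 also had a DR5, on the opposite strand from 90 to 74 bases before a start on chromosome 10. A match describes letters in a window, and neither binding nor the start used by the cells was measured in these libraries.

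RARB (ENSG00000077092) encodes RARβ, the receptor isotype long known to be induced by its own ligand. In GRCh38, the build of all positions here, it lies on chromosome 3 from 25174332 to 25597932 on the plus strand. It had 6 counts with FFA alone and 46 once 9-cis-RA was added. The second library was higher by 7.81-fold in size-factor-scaled counts. With the pseudocount added the log2 fold change was 2.77, and its 95% interval, set without the pseudocount, ran from 1.74 to 4.48. Even so, RARB was the lowest of the 9 genes in both libraries, at 0.0773 TPM (95% interval 0.0284 to 0.168) and 0.643 TPM (0.471 to 0.858). It was the only one of the 9 past a log2 fold change of 1, and none was below -1. Over the 20431 genes compared, 3.37% were above 1 and 4.9% below -1.

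RARA (ENSG00000131759), the main RAR isotype of these cells, lies on chromosome 17 from 40309180 to 40357643 on the plus strand. It had 1669 and 1886 counts, or 16.8 and 20.6 TPM, in the FFA and FFA + 9-cis-RA libraries. Its log2 fold change was 0.20 (95% interval 0.11 to 0.30), so the second library was slightly higher. RARG (ENSG00000172819), on chromosome 12 from 53210567 to 53232980 on the minus strand, encodes the RARγ isotype. It had 114 and 138 counts, or 1.06 and 1.39 TPM. At 0.30 its log2 fold change was positive, but the interval held 0 (-0.065 to 0.67), and no difference was detectable at this depth.

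Within the RAR family RARA made up 93.7% of the summed TPM with FFA alone (95% interval 92.5 to 94.8) and 91.0% with FFA + 9-cis-RA (89.7 to 92.2). RARB was 0.432% and 2.85% of it, and RARG 5.92% and 6.16%. The ratio of RARG to RARB in TPM was 13.7 with FFA alone and 2.16 once 9-cis-RA was added. The gain of RARB against RARA was large in ratio and small in amount.

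**Figure D1:**
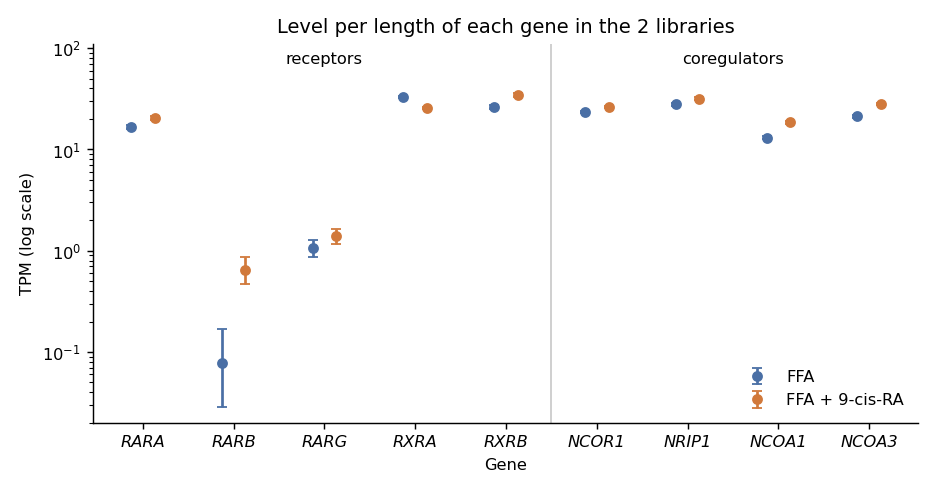
TPM (log axis) of the 9 genes in the FFA library (blue) and the FFA + 9-cis-RA library (orange), with bars for the exact 95% Poisson counting interval. RARB stands at 0.0773 and 0.643 TPM and RARG at 1.06 and 1.39, while the other 7 genes lie between 13.1 and 34.4 TPM.

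The RXR genes differed in opposite directions. RXRA (ENSG00000186350) encodes RXRα, the isotype regarded as the main RXR of hepatocytes and the receptor on which the study centres. It lies on chromosome 9 from 134317098 to 134440585 on the plus strand. It had 8291 counts with FFA alone and 5978 once 9-cis-RA was added, a level 0.735 times as high and a log2 fold change of -0.44 (95% interval -0.49 to -0.40). RXRA was the only one of the 9 genes that was lower with 9-cis-RA. Among the 10298 genes whose 2 counts summed to at least 1000, 5.56% had a lower log2 fold change than RXRA.

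RXRB (ENSG00000204231) encodes RXRβ and lies on chromosome 6 from 33193588 to 33200688 on the minus strand. It had 2162 counts with FFA alone and 2608 once 9-cis-RA was added, which is 0.30 on the log2 scale (95% interval 0.22 to 0.38). RXRG, the remaining RXR gene and not one of the 9, had 7 and 4 counts, and its interval (-3.00 to 1.20) allows a difference in either direction.

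The difference between RXRA and RXRB does not depend on how the libraries are scaled. The fold of RXRA was 0.598 times that of RXRB (exact 95% interval 0.559 to 0.639), a value taken within the libraries. Per exonic base RXRA was 55.3% of the summed RXR level with FFA alone (95% interval 54.2 to 56.5) and 42.6% with FFA + 9-cis-RA (41.5 to 43.7). RXRB was 44.5% and 57.3%. Which of them was the more abundant depends on the length used, because the exonic bases counted for RXRA come to 12077, against 5770 in its longest GENCODE transcript, a processed transcript. Per base of the longest transcript RXRA was 65.8% and 53.6% of the RXR level, so that it stayed above RXRB in both libraries, and the ratio of RXRA to RXRB was 1.93 and 1.16 in place of 1.24 and 0.744.

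Per exonic base the summed RXR level differed little, at 59.1 and 60.1 TPM, and its direction depended on the scaling. The log2 ratio of the sum was above 0 only on TPM, at 0.023. It was -0.067 on size factors (95% interval -0.11 to -0.019), -0.047 on TMM factors (another library scaling) and -0.018 on total counts. For the RAR family the sum was higher in the FFA + 9-cis-RA library on each of these scales. Its log2 ratios, in the same order, were 0.34, 0.25, 0.27 and 0.29. The ratio of summed RXR to summed RAR in TPM was 3.30 with FFA alone and 2.66 once 9-cis-RA was added. The RXR sum also depends on the length used. Per kilobase of the longest transcript, before library scaling, RXRA had 1437 and 1036 counts and RXRB 743 and 897. On these unscaled counts RXRA lost more than RXRB gained, so their sum was lower with 9-cis-RA, and the scaled sum was not computed.

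**Figure D2:**
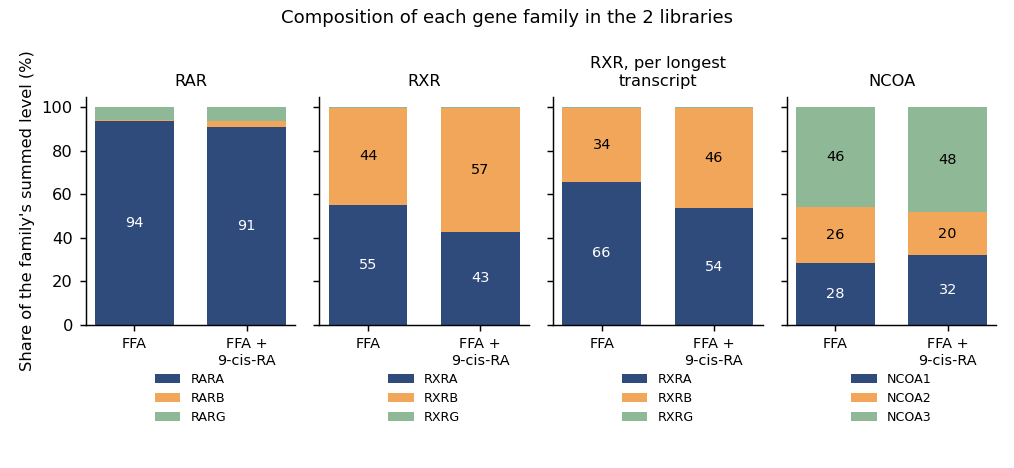
Share (%) of each gene in the summed level per length of its family, in the FFA and FFA + 9-cis-RA libraries, for the RAR, RXR and NCOA families per exonic base and once more for RXR per base of the longest transcript. RXRA loses share to RXRB with either length, from 55.3% to 42.6% and from 65.8% to 53.6%, and RARA holds over 90% of the RAR level in both libraries.

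RXRA differed from each of the other 8 genes by more than counting error. Of the 36 pairs among the 9 genes, 25 had a ratio of folds whose exact 95% interval left out 1, and these included all 8 pairs with RXRA. Against RXRA's neighbours the ratio ran from 0.551 for NCOA1 to 0.699 for NCOR1, with RARB far below at 0.0941. Of the 11 pairs whose interval held 1, 6 involved RARG. The other pairs in that group were RARA with RXRB, RARA with NRIP1, RXRB with NCOA3, NCOR1 with NRIP1, and NCOA1 with NCOA3. The share of pairs apart was not computed over other genes. Of single genes with at least 1000 counts, 34.4% had an interval above 0 and 34.7% below 0. Differences beyond counting error were thus common at this depth, and whether the number of pairs apart is particular to the set was not tested.

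**Figure D3:**
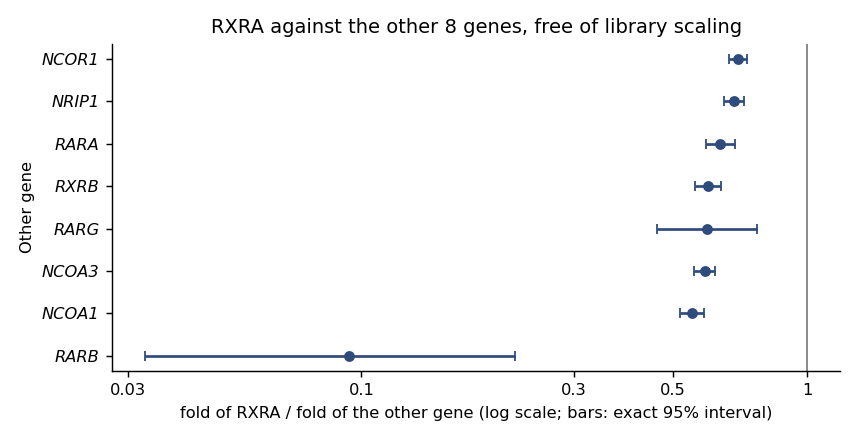
Fold of RXRA (FFA + 9-cis-RA over FFA) divided by the fold of each other gene, on a log axis, with exact 95% intervals of the odds ratio of the counts. All 8 intervals lie below 1, from 0.0941 for RARB to 0.699 for NCOR1.

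The corepressor-side genes were close to level between the libraries. NCOR1 (ENSG00000141027) encodes the nuclear receptor corepressor that holds HDAC3 on receptors without ligand, and lies on chromosome 17 from 16029157 to 16218185 on the minus strand. It had 7503 and 7736 counts, or 23.2 and 26.0 TPM, and differed by 0.072 on the log2 scale (95% interval 0.026 to 0.12).

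NRIP1 (ENSG00000180530), the repressor of receptors that carry ligand, lies on chromosome 21 from 14961235 to 15065936 on the minus strand. It was among the most abundant of the 9 genes, with 4971 and 5231 counts, or 27.9 and 31.8 TPM. The FFA + 9-cis-RA library was higher by a log2 fold change of 0.10 (95% interval 0.045 to 0.16). This is close to the value of NCOR1: the ratio of their folds was 0.980 (0.932 to 1.03).

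Both coactivator genes of the set were higher with 9-cis-RA. NCOA1 (ENSG00000084676), on chromosome 2 from 24491914 to 24770702 on the plus strand, had 2373 counts with FFA alone and 3106 once 9-cis-RA was added. Its log2 fold change of 0.42 (95% interval 0.34 to 0.49) was the second highest of the 9 after RARB, and 96.9% of the genes with at least 1000 counts had a lower value. NCOA3 (ENSG00000124151), on chromosome 20 from 47501887 to 47656877 on the plus strand, had 3741 and 4581 counts with a value of 0.32 on the log2 scale (0.26 to 0.38). The folds of NCOA1 and NCOA3 did not separate, with a ratio of 1.07 (0.997 to 1.15).

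NCOA2, the third gene of the steroid receptor coactivator family and not one of the 9, differed the other way. It had 2499 counts with FFA alone and 2244 once 9-cis-RA was added, which is -0.13 on the log2 scale (95% interval -0.21 to -0.045). The fold of NCOA1 was 1.46 times that of NCOA2 (1.35 to 1.58), and that of NCOA3 was 1.36 times (1.27 to 1.47). NCOA2 accordingly made up 25.8% of the family's summed level with FFA alone and 19.9% with FFA + 9-cis-RA, while NCOA1 made up 28.4% and 31.9%, and NCOA3 45.9% and 48.2%. As a share of counts, without length, NCOA2 was 29.01% and NCOA1 27.6% with FFA alone, which turns the order of these 2 genes.

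In the order of levels the FFA library ran RXRA, NRIP1, RXRB, NCOR1, NCOA3, RARA, NCOA1, RARG and RARB, from 32.7 to 0.0773 TPM. The intervals of NRIP1 and RXRB met, and those of every other pair of neighbours were apart. The FFA + 9-cis-RA library ran RXRB, NRIP1, NCOA3, NCOR1, RXRA, RARA, NCOA1, RARG and RARB, from 34.4 to 0.643 TPM, where the intervals of NCOR1 and RXRA met. Per exonic base RXRA thus stood at rank 1 in the FFA library and rank 5 in the other. Per kilobase of the longest transcript RXRA was at rank 1 in both libraries, at 1437 and 1036 counts against 743 and 897 for RXRB, and RARA stood above NCOA3. The ranks rest on exonic lengths, which are 1.06 times the longest GENCODE transcript for NCOA3 and 2.09 times for RXRA, with the other 7 in between.

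Across the set, the counting interval was wholly above 0 for 7 of the 9 genes, wholly below 0 for RXRA and held 0 for RARG. Over all genes compared these shares were 22.5% above 0 and 25.7% below 0. Well-counted genes have narrower intervals, so the 7 members with at least 1000 counts were also read against the 10298 genes at that depth. Of these 7 members 6 had an interval above 0 and 1 below 0, against 34.4% and 34.7% of the genes at that depth. None of the 7 passed a log2 fold change of 1 in either direction, as 0.204% of those genes did above 1 and 0.66% below -1. The median log2 fold change was 0.30 for the 9 genes and -0.020 for all genes compared. The central 95% of well-counted genes lay between -0.66 and 0.45, and the 7 members at that depth were all inside it. Because the 9 genes were chosen with earlier results of these data known, these counts and medians only describe the set. The paralogs outside it, RXRG and NCOA2, were both lower with 9-cis-RA, RXRG with an interval that held 0.

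**Figure D4:**
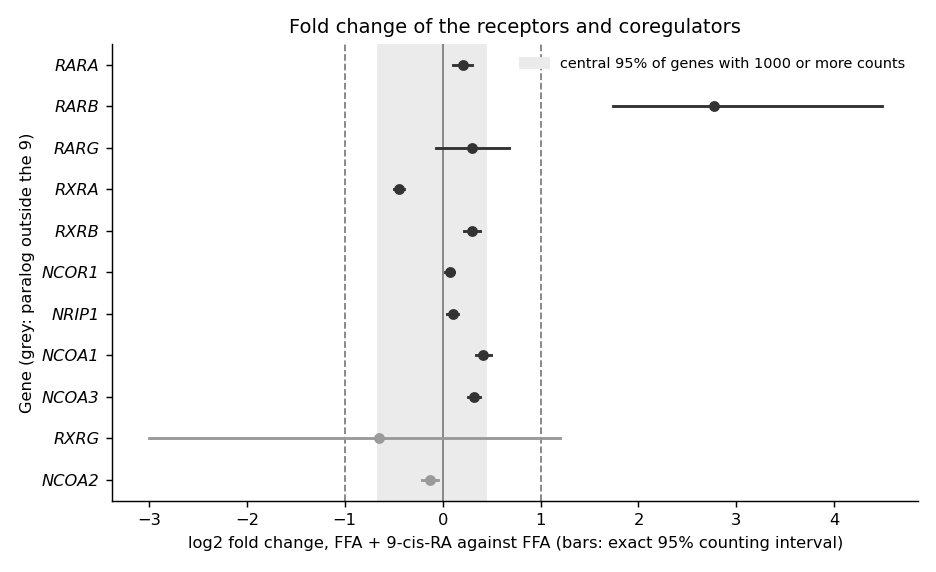
Log2 fold change (FFA + 9-cis-RA against FFA) of the 9 genes (black) and of RXRG and NCOA2 (grey), with exact 95% counting intervals. Dashed lines mark -1 and 1, and the band marks the central 95% of genes with at least 1000 counts (-0.66 to 0.45). The 7 members at that depth lie inside the band, which does not apply to RARB, at 2.77, or RARG, since both were counted less.

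The proteins that work with these coregulators were described from lists kept apart from the 9. For comparison, 34.4% of genes with at least 1000 counts had an interval above 0 and 34.7% below 0. Over all genes compared the shares were 22.5% and 25.7%. Of 9 corepressor complex genes, 2 had an interval above 0, 4 below 0 and 3 that held 0, with a median log2 fold change of -0.051. The highest values were those of SIN3B, a corepressor scaffold, at 0.12, and HDAC3, the deacetylase bound by NCOR1, at 0.099. The lowest were those of GPS2, at -0.26 with an interval that held 0 (-0.56 to 0.032), and TBL1X, at -0.23 (-0.27 to -0.18). GPS2 and TBL1X are subunits of the NCOR1 complex.

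The coactivator partner list held 14 genes, NCOA2 among them, of which 7 had an interval above 0, 5 below 0 and 2 that held 0, with a median of 0.051. KAT2B, an acetyltransferase gene, had 211 and 292 counts and a log2 fold change of 0.49 (95% interval 0.24 to 0.76). CREBBP, the acetyltransferase that binds the steroid receptor coactivators, had 3934 and 4954 counts and a value of 0.36 (0.30 to 0.42). The lowest were PRMT1, an arginine methyltransferase gene, at -0.30, and PPARGC1A, a coactivator of oxidative metabolism, at -0.26.

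Of 5 genes for other proteins that bind RARs or receptors with ligand, 2 had an interval above 0, 1 below 0 and 2 that held 0. LCOR, a corepressor that binds receptors carrying ligand as NRIP1 does, had 4867 and 6914 counts and a log2 fold change of 0.53 (0.48 to 0.59). TRIM24, which binds RARα in the presence of ligand, had 14126 and 19622 counts and a value of 0.50 (0.47 to 0.53). Among those with a normalized count of at least 100, the lowest were TNIP1 at -0.083 and LCORL at 0.099. LCOR and TRIM24 thus stood above every one of the 9 except RARB.

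**Figure D5:**
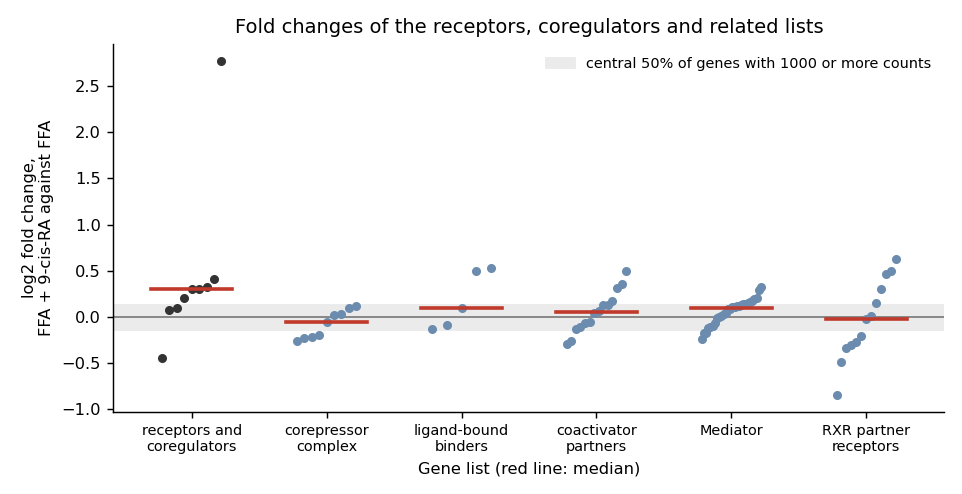
Log2 fold change of each gene (points) and median (red line) for the 9 receptors and coregulators and 5 related lists, beside a band for the central 50% of genes with at least 1000 counts (-0.14 to 0.13). The median of the 9 is 0.30, and those of the related lists lie between -0.051 and 0.099.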

How the data were processed

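RNA was sequenced from 2 HepG2 cultures, 1 library per group, recorded as a single batch. Per the file headers, the authors made the deposited gene counts, which are raw fragments, with featureCounts version 2.0.1, run on read pairs with both ends mapped and strand setting 2. Multi-mapping reads and reads on more than 1 gene were dropped under the default settings. Exonic overlap with another gene on the same strand covered 0.513% of RXRA, 1.02% of NRIP1 and 0% of the other 7 genes. Among the other genes named it was largest for CD68 (81.6%), GPS2 (44.7%) and CYP26A1 (25.3%). The sample records name GRCh38 and DESeq2. The aligner and annotation release are not given in the sources used here.

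Of 60623 entries, 42005 had a symbol. Of the 58516 entries in GENCODE 29, 92.9% shared a gene start or end with it. Size factors came from DESeq2 version 1.42.0 and TMM factors from edgeR version 4.0.16, in R version 4.3.3. A gene was compared if its 2 counts summed to 10 or more, and a pseudocount of 1 was added. Exact intervals (Clopper-Pearson, Poisson, conditional odds ratio), at 95%, used Python 3.11.15 with scipy 1.17.1; family shares used a normal approximation, which was not applied under 20 counts. Size factors, fold changes and their intervals were checked on simulated Poisson counts with known changes, which hold no spread between cultures. Levels per length, family shares, pair ratios and the promoter search were not part of that check. No test was possible with 1 library per group. All 9 members are named, with RXRG and NCOA2 as paralogs, 2 genes for the label check and, per related list, the 2 highest and the 2 lowest among genes that reached a normalized count of 100 in a library. Of the genes on the lists, 2 are not reported here, and the results that need them were left out. Members and lists were chosen with earlier results of these data known. Alternatives were other scalings, pseudocounts, count minimums and lengths.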

Additional observations from a re-analysis of the deposited data

How the results depend on the processing

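The 9 log2 fold changes kept their direction when scaled by TMM or by total counts, with a pseudocount of 0.1 or 5, and with a count minimum of 50 or none. Of 54 such values, 52 stayed within the counting interval. The other 2 came from total-count scaling, with RXRA at -0.40 and NCOR1 at 0.12. The count minimums could not move any value or interval of the 9 genes, since each had more than 50 counts over both libraries. The pseudocounts of 0.1 and 5 moved mainly RARB, to 2.95 and 2.23. Among the 9 the counts past 1 and -1 did not change under these alternatives, nor did the counts of intervals apart from 0 under the scalings and count minimums, and the median stayed between 0.29 and 0.35. Over all genes the number above 1 and below -1 moved from 689 and 1002 to 341 and 594 with a pseudocount of 5, 153 and 361 with at least 50 counts, and 3771 and 2493 with no minimum.

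Shares within the RXR and NCOA families depended on length. As a share of counts RXRA was 79.3% and 69.6% in the FFA and FFA + 9-cis-RA libraries and RXRB 20.7% and 30.4%. Per base of the longest transcript, an alternative chosen after seeing the data, RXRA was 65.8% and 53.6% and RXRB 34.0% and 46.4%. NCOA2 was 29.01% and 22.6% as a share of counts and 27.2% and 21.0% per base of the longest transcript, lower with 9-cis-RA under either. Leaving out overlapped bases moved no share past its interval. Size factors in place of TPM moved the log2 ratio of the level past its counting interval for RXRA, RXRB, NCOR1, NRIP1, NCOA1 and NCOA3. The ratio went from -0.35 to -0.44 for RXRA and from 0.16 to 0.072 for NCOR1. For RARA, RARB and RARG it stayed within the interval, and no direction changed. RARB rests on 6 and 46 counts, and RXRG was too low to compare. No paired analysis was possible because each group had 1 library.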

Other observations

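RXR also serves as the partner of other nuclear receptors, and Mediator links receptors with ligand to RNA polymerase II. Of 13 RXR partner receptor genes, 3 had a counting interval above 0, 6 below 0 and 4 that held 0, with a median log2 fold change of -0.026. NR1H4, which encodes the bile acid receptor FXR, had 2305 counts with FFA alone and 1260 once 9-cis-RA was added, which is -0.84 on the log2 scale (95% interval -0.94 to -0.74). PPARG had 1019 and 712 counts and a value of -0.49 (-0.63 to -0.35). PPARD, at 0.49 (0.39 to 0.60), and THRA, a thyroid hormone receptor gene, at 0.30 (0.21 to 0.40), were the highest among those counted well enough to be named.

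Of 28 Mediator genes, 13 had an interval above 0, 5 below 0 and 10 that held 0, with a median of 0.097. The highest were MED21 at 0.32 and MED23 at 0.29, and the lowest were MED31 at -0.24 and MED15 at -0.18. No Mediator gene passed 1 or -1. Of all genes with at least 1000 counts, 34.4% had an interval above 0 and 34.7% below 0. These lists, like the others, compare 2 libraries without replicates.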
